A study of Mus musculus with 4 samples.

Results

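Broad SCL peaks are the regions of SCL binding that spanned 900 bp or more in a list of 12885 peaks called by chromatin immunoprecipitation and sequencing (ChIP-seq). They were chosen by this width alone, taken from the deposited start and end of each peak, and there were 435 of them (3.38% of the list) beside 12450 narrower peaks. The study mapped SCL in FLK1+ mesoderm sorted from embryoid bodies (EBs), the aggregates in which mouse embryonic stem (ES) cells differentiate, at day 3.5. The design holds 2 libraries immunoprecipitated with an in-house rabbit antiserum to SCL and 2 input libraries of unenriched chromatin without antibody, and no Scl-deficient library is part of it. All 4 came from wild-type J1 ES cell cultures labelled C57Bl/6 X Sv129, so every library carries the same genotype and stage and the contrast is antibody against input. The list is a single call on merged replicates, with no value for any separate library. It therefore gives no spread between replicates, and sequencing depth per library is not in it.

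SCL, encoded by Tal1, belongs to the basic helix-loop-helix family, and without it mesoderm gives no blood. It dimerises with E proteins on E-boxes, and through the LMO2 and LDB1 adaptors it forms a complex with GATA factors on a composite site made of the CTG end of an E-box followed by a GATA. Corepressors of the ETO family, Polycomb proteins and GATA cofactors can join such complexes. FLK1+ mesoderm holds the progenitors of blood and endothelium, together with cells that still have cardiac or paraxial potential.

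The sequence at the summit, the point of highest ChIP signal in a peak, is printed for broad peaks from 5 of the 8 gene groups described further on, as examples of the composite. Each is the summit base with 50 bp on each side, on the plus strand of mm9 (NCBIM37), 5′ to 3′, with the CTG and the GATA of the composite in capitals. The composite was searched as CTG, 7 to 9 bases of any kind, then GATA, on both strands, so that on the minus strand it reads TATC, the spacer and CAG. Runx1 is the regulator of the endothelial to haematopoietic transition, Gata2 a GATA factor of blood progenitors, Cbfa2t3 and Gse1 code for corepressors and Zfpm1 for the GATA cofactor FOG1. Tgm2 codes for a transglutaminase, Sox18 for an endothelial SOX factor, Skap1 for an adaptor of T cells and Gata5 for a cardiac GATA factor.
Runx1, chr16:93147878-93147978: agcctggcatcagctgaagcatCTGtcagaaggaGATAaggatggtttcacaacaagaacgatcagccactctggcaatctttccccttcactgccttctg
Gata2, chr6:88140739-88140839: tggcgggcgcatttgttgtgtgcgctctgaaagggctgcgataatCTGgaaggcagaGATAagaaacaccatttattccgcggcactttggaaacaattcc
Cbfa2t3, chr8:125243753-125243853: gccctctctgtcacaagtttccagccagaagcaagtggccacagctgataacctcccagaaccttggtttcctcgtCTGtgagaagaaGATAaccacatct
Gse1, chr8:122895804-122895904: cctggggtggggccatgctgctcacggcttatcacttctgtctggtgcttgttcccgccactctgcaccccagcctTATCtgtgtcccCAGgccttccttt
Zfpm1, chr8:124808700-124808800: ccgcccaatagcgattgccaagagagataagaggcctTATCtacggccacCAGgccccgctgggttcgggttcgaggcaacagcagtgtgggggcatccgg
Tgm2, chr2:157967867-157967967: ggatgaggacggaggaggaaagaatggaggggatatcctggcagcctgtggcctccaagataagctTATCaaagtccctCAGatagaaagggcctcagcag
Sox18, chr2:181398117-181398217: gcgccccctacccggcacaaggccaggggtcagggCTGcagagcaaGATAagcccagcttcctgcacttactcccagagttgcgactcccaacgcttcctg
Skap1, chr11:96370947-96371047: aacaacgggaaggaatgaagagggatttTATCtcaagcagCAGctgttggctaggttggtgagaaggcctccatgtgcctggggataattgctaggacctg
Gata5, chr2:180089730-180089830: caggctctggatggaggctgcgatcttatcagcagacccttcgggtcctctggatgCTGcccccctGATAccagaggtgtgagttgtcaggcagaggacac
The composite spacer was 9 bp at Runx1, Gata2, Cbfa2t3, Zfpm1 and Tgm2, 8 bp at Gse1, Sox18 and Skap1, and 7 bp at Gata5. Its centre lay 2 bp from the summit at Gata2 and 34 bp from it at Cbfa2t3, and the other 7 lay between these distances.

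Another 2 broad peaks are shown because their fold enrichment was among the highest yet no complete composite stood within 50 bp of the summit. Gm14453 and 9530052E02Rik are annotated transcripts without a named function.
Gm14453, chr2:172860676-172860776: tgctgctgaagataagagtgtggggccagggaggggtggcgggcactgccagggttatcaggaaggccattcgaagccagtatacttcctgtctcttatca
9530052E02Rik, chr8:11084224-11084324: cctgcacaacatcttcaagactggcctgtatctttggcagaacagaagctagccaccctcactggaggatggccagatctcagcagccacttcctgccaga
The Gm14453 window held 3 GATA motifs (a GATA between A or T before it and A or G after it, on either strand), whereas that of 9530052E02Rik held neither a GATA motif nor an E-box (CANNTG). Both peaks did hold composites outside or across the window edge. The Gm14453 peak held 2, centred 54 and 309 bp from the summit. That at 54 bp crossed the edge, and its GATA is the last of the 3 GATA motifs in the printed window. The 9530052E02Rik peak held 1, centred 136 bp from the summit. No match says only that these letters are not in the window.

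Broad peaks ranged from 900 to 2145 bp, with a median of 1028 bp (95% order-statistic interval 1016 to 1040) and quartiles of 947 and 1153 bp. The median of the other peaks was 391 bp. Of the 435, 115 were under 950 bp, 255 reached 1000 bp, 88 reached 1200 bp and 20 reached 1500 bp. Together they covered 471.8 kb, which was 8.20% of all sequence under peaks. Just inside the threshold stood peaks nearest to Fam84b (900 bp, fold 43.1), Myc (901 bp, fold 10.3) and Odc1 (901 bp, fold 21.9). Just outside stood that nearest to Smtnl2 (898 bp, fold 144.0) and, 1 bp short of the threshold, those nearest to Gm13816 (fold 10.6) and Nlrc5 (fold 17.1). The folds of these 6 peaks overlapped across the threshold.

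Fold enrichment, the authors' measure of how far the ChIP signal at the summit exceeded its local background, comes from the same contrast as width and is given as description. Its median was 34.2 over broad peaks (30.1 to 39.1) with quartiles of 17.9 and 65.0, against 10.9 over the other peaks. The ChIP fragments stacked at the summit (pileup, solved from the deposited fold and −log10 p) had a median of 201 in broad peaks and 52 in the others. Local background, on the same scale, was also higher, with medians of 4.72 and 3.67, and its part in the width was not tested. A fold of 10 or more was reached by 387 broad peaks (89.0%) and by 55.5% of the others. Of the 215 peaks with a fold of 100 or more, 61 were broad (28.4%). Broad peaks were 5 of the 10 peaks with the highest fold, 31 of the highest 100 and 160 of the highest 1000.

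Within the 435 broad peaks, width and fold went together only loosely, with a Spearman correlation of 0.171 across peaks that share the same libraries and background. The plot of width against fold shows both ends of this range. A broad peak could be weak: 48 had a fold under 10, and at Selp, which encodes the adhesion receptor P-selectin, a peak of 932 bp had a fold of 4.63 with a pileup of 40 fragments.

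**Figure D1:**
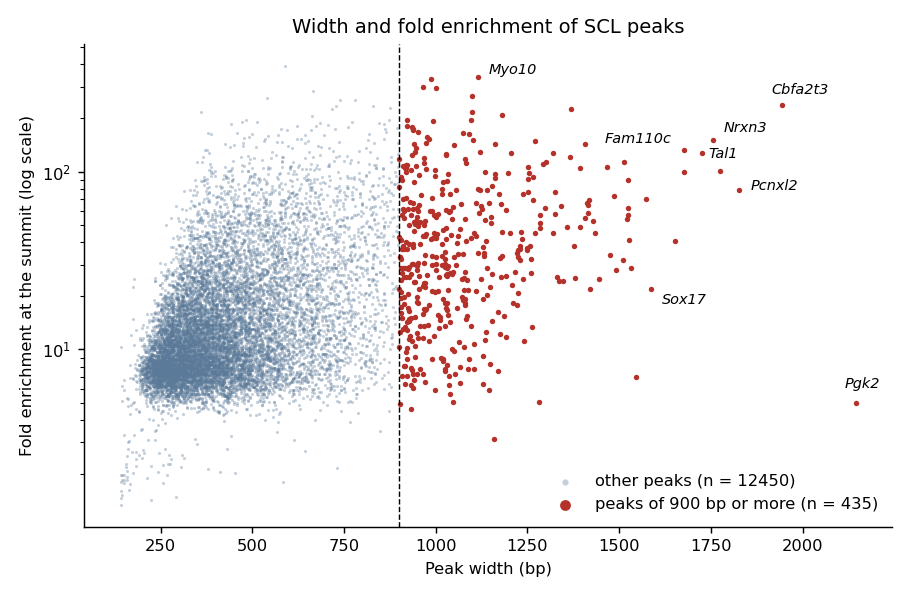
Width in bp (horizontal axis) against fold enrichment at the summit on a log scale (vertical axis) for 435 broad peaks (red) and 12450 other peaks (blue), 1 point a peak, with a dashed line at 900 bp. Broad peaks sit mostly above a fold of 10, with Cbfa2t3 and Tal1 wide and strong and the widest peak, nearest to Pgk2, at a fold of 5.02.

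The place of the summit in the peak is set in part by width and is given as description. The summit lay within 100 bp of the middle of the peak in 143 broad peaks (32.9%) and in 86.8% of the other peaks, which are shorter. Its distance to the nearer end had a median of 365 bp in broad peaks and to the farther end of 703 bp. As a share of width the nearer side was 34.2% in broad peaks and 41.9% in the others. Other SCL summits were also closer, with a median distance to the next summit of 11.4 kb for broad peaks and 28.4 kb for the rest. Another summit stood within 5 kb of 138 broad peaks (31.7%) and of 20.5% of the other peaks. These distances are a description, since summits and widths come from the same call.

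The widest peak, 2145 bp at chr17:39983572-39985716, stood apart. Its nearest start site was that of Pgk2, a phosphoglycerate kinase of the testis, 360.8 kb away, and its fold was 5.02 on a local background of 220.6 fragments. A second broad peak beside it (1159 bp) had the lowest fold of all broad peaks, 3.16, on a background of 266.2. These were the only 2 broad peaks with a background over 10 times the median of the list, a limit of 36.7 that 68 other peaks passed. Without these 70 peaks no difference in motifs or annotation described further on changed its sign or its side of 0. The next in width was an upstream peak of Cbfa2t3, 1944 bp at chr8:125243423-125245366, with a fold of 236.6 and a pileup of 2839 fragments. It lay 20.8 kb upstream of the start site and held 3 composites, at 34, 656 and 731 bp from its summit.

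Peaks of 1828 bp nearest to Pcnxl2, a pecanex-like protein, and of 1776 bp at Abi3, an adaptor of actin regulation, came next, with folds of 78.6 and 100.6. The peak at Nrxn3, a synaptic adhesion gene, spanned 1756 bp with a fold of 151.4 and 2 composites. Tal1 itself, the gene of SCL, had a peak of 1725 bp at chr4:114728833-114730557 over its promoter. The summit lay 253 bp downstream of a start site, the fold was 127.4 on a pileup of 530, and its only composite was 386 bp from the summit. The remaining 4 of the 10 widest were nearest to 2010107E04Rik (1678 bp, fold 99.3), Fam110c (1676 bp, fold 132.5), Trpm1, a cation channel gene (1652 bp, fold 40.9), and Sox17, a SOX factor of endothelium (1587 bp, fold 21.8). Of these 10, summits lay within 1 kb of a start site at Abi3, Tal1, Fam110c and Sox17.

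By fold, the leading broad peak was 13.6 kb upstream of Myo10, an unconventional myosin of filopodia, with a fold of 338.4 and a pileup of 1827. Runx1t1, which encodes the corepressor ETO, followed with a fold of 330.7 and a summit 4 bp downstream of a start site. Runx1 had a fold of 298.0 at a peak of 966 bp lying 321.6 kb upstream of the nearest start site of the gene. Lyl1, the closest relative of SCL, had a peak of 1002 bp at its promoter with a fold of 293.9, a pileup of 2757 and 3 composites. Gypc, which encodes the red cell membrane protein glycophorin C, had a fold of 265.8 in an intron, 7.17 kb upstream of its nearest start site. The other 5 of the first 10 were Cbfa2t3 (236.6), Gm14453 (225.3), 9530052E02Rik (216.7), E030042O20Rik (206.7) and 1110036E04Rik (195.9). A composite stood within 50 bp of the summit in 7 of these 10.

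By nearest start site, the broad peaks belonged to 399 genes, which were 1.53% of 26061 annotated genes and 5.75% of the 6938 genes with any SCL peak. A single broad peak was assigned to 367 genes, 2 to 29 genes and 3 or more to 3 genes. Zfpm1 had 4 broad peaks of its 10 peaks, from 911 to 1466 bp wide and with folds of 5.05, 13.1, 76.5 and 106.0, all downstream of a start site inside the gene. Gse1 had 3 of 19, with folds of 103.2, 106.6 and 173.4 and summits 13.2, 1.69 and 116.9 kb upstream. Accn4, an acid-sensing ion channel gene, had 3 of 9 around its promoter, with folds of 24.8, 37.5 and 66.5. Runx1 and Cbfa2t3 each had 2.

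Gse1, Zfpm1 and Cbfa2t3 lie on chromosome 8 within Gm20388, an annotated gene from 122434741 to 126869622 that spans several neighbouring genes. Inside it 13 of 115 peaks were broad (11.3%), against 24 of 753 on the remainder of chromosome 8 (3.19%). The median background there was 6.81 fragments, against 5.06 on the remainder of chromosome 8 and 3.67 over the whole list, and its part in these widths was not tested. Over whole chromosomes the share of peaks that were broad ran highest on chromosome 7 (38 of 686, 5.54%) and lowest, among those with over 100 peaks, on chromosome 3 (8 of 639, 1.25%) and X (4 of 283, 1.41%).

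Gene groups of blood, vessel and mesoderm development were read against these shares. Their members were listed with earlier results of these data known, so the groups are not independent of the peaks. Among regulators of the SCL complex and blood transcription factors, 8 of 38 genes had a broad peak and 11 of their 117 peaks were broad (9.40%, Wilson 95% interval 5.33 to 16.1). Besides Runx1, Lyl1, Tal1 and Gata2, these were Aff3, a nuclear protein of the AF4 family, with folds of 109.3 and 153.0, Hhex, a homeobox factor of blood and endothelium, with 109.9 and 7.25, and the ETS factors Erg (58.0) and Fli1 (33.6). The second Runx1 peak, in an intron, had a fold of 123.8, and that of Gata2, 3.10 kb upstream, 36.8. The 2 Hhex peaks adjoined at its promoter and neither held a composite. The median fold of the 11 was 109.9.

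Among corepressors and Polycomb genes, 5 of 43 genes had a broad peak and 11 of 136 peaks were broad (8.09%, 4.58 to 13.9). These were Zfpm1, Gse1, Cbfa2t3, Runx1t1 and Rybp, which encodes a subunit of Polycomb repressive complex PRC1. Of the 11 peaks, 9 were at Zfpm1, Gse1 and Cbfa2t3, which had 40 peaks in all, inside the Gm20388 stretch. The other 40 genes had 2 broad peaks of 96 (2.08%), below the 3.38% of the whole list. At Rybp a peak of 1083 bp had a fold of 40.9 with its summit 1.07 kb upstream of the start site, without a composite. The second Cbfa2t3 peak had a fold of 13.3, far below that of the first.

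Among endothelial and vessel genes, 11 of 49 genes had a broad peak, and 13 of 133 peaks were broad (9.77%, 5.80 to 16.0). The SOX factors Sox7 (fold 74.9), Sox17 (21.8) and Sox18 (39.9) each had 1. Efnb2, which encodes an arterial ephrin, had 2, with folds of 90.6 and 18.2 at 150.6 and 55.9 kb from its start site, and held 2 and 4 composites. Gcom1, a read-through locus, also had 2 adjoining peaks, with folds of 181.3 and 79.2. Tgm2 (126.5), the retinoic acid hydroxylase gene Cyp26a1 (79.4), the apelin receptor gene Aplnr (61.1), Ets1 (48.9), Egfl7, which encodes a factor secreted by endothelium (26.3), and Eng, which encodes endoglin (16.1), had 1 each.

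Red cell and heme genes had a broad peak at 6 of 40, with 6 of 73 peaks broad (8.22%, 3.82 to 16.8). After Gypc came Epb4.1, a red cell skeleton gene, with a fold of 94.1, then the blood group gene Rhd (61.4) and Slc25a37, the mitochondrial iron importer (48.0). Aqp8, a water channel gene, had a fold of 42.4, and Abcb10, a mitochondrial transporter gene, 6.36. Receptors and surface proteins of blood cells had a broad peak at 5 of 27, with 5 of 52 peaks (9.62%, 4.18 to 20.6). These were Skap1 (74.6), which was placed in this group although its product is an adaptor inside the cell, the platelet receptor gene Gp1ba (64.2), Kit, the receptor of stem cell factor (16.7), Cd44 (15.6) and the thrombin receptor gene F2r (8.56).

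The mesoderm and signalling groups outside blood and vessel are given in the same way. Among cardiac genes 2 of 33 had a broad peak, Gata5 with a fold of 45.1 and 4 composites and Tbx5 with 40.9, and 2 of 41 peaks were broad (4.88%, 1.35 to 16.1). Streak and paraxial mesoderm genes had 1 of 42 (2.38%, 0.422 to 12.3), with a fold of 26.0 in the Gm20388 region, assigned to the distant Foxc2, a forkhead factor. The pathway of BMP and TGF-beta had 1 of 78 (1.28%, 0.227 to 6.91), in an intron of Smad1, the BMP signal transducer, with a fold of 43.3. Over the first 5 groups together, the corepressor and Polycomb genes included, 46 of 511 peaks were broad (9.0%, 6.82 to 11.8) at 35 of 197 genes (17.8%), and over the other 3 groups 4 of 161 (2.48%, 0.97 to 6.21) at 4 of 103 (3.88%). Without peaks inside Gm20388, an alternative chosen after seeing the data, the counts were 36 of 468 (7.69%, 5.61 to 10.5) and 3 of 151 (1.99%, 0.678 to 5.68). The background is 3.38% of peaks and 1.53% of all annotated genes, most of which have no SCL peak. Among genes with any SCL peak it is 5.75%. On that basis the first 5 groups, in order, stood at 29.6%, 20.8%, 29.7%, 18.2% and 25% of genes. The other 3 stood at 11.1%, 5.56% and 4.35%. Since width comes from the readout that led to these groups, the shares are a description, and no list was tested.

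**Figure D2:**
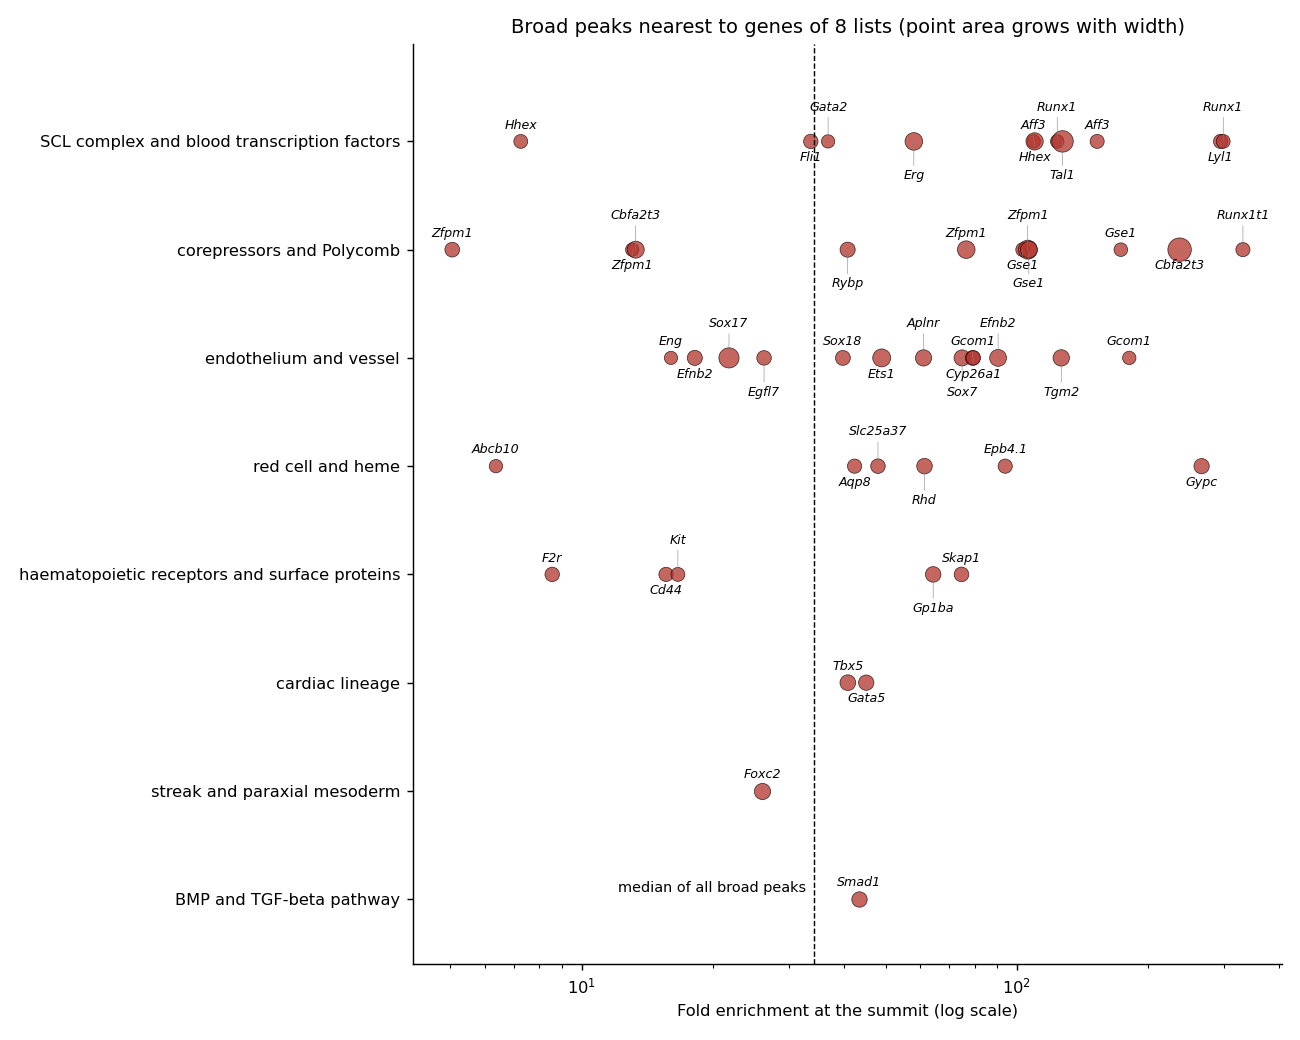
Fold enrichment at the summit on a log scale (horizontal axis) of every broad peak nearest to a gene of 8 groups (rows), 1 point a peak, with the gene name and a point area that grows with width. The dashed line is the median of all 435 broad peaks, 34.2. Most points of the top 3 rows lie to its right, as do most red cell points and all cardiac and BMP and TGF-beta points.

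The study lists genes as activated or repressed by SCL. It took the direction from gene expression with and without SCL, but only a gene with an SCL peak in these same libraries could enter either list, so the counts are not independent evidence. Of 1430 peaks nearest to activated genes 102 were broad (7.13%, 5.91 to 8.58), and these belonged to 87 genes. Of 481 peaks nearest to repressed genes 10 were broad (2.08%, 1.13 to 3.78), at 9 genes. Of the remaining 10974 peaks 323 were broad (2.94%), and the median folds of the 3 sets of broad peaks were 53.0, 30.5 and 31.8. Those at repressed genes included Cyp26a1, with a fold of 79.4, Mycn, an oncogenic transcription factor gene (56.6), Smad1 (43.3) and Prickle1, a gene of planar cell polarity (41.7). The chemokine receptor gene Ccr7 had 2 (32.4 and 28.6) and the guidance ligand gene Slit3 had 1 (26.4). The remaining 3 were nearest to 1500016L03Rik (16.8), 2610035D17Rik (8.96) and Arhgap26 (8.32). Genes on this side were named after their values were seen.

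Where broad peaks lie in the annotation does not enter their choice, and here the difference from the other peaks was measured with its Newcombe 95% interval over peaks, which covers counting error only. Summits within 1 kb of a start site made up 58 of 435 broad peaks (13.3%) and 8.31% of the others, a difference of 5.03 percentage points (2.11 to 8.58). Intergenic summits were fewer, 179 (41.1%) against 48.9%, a difference of -7.80 points (-12.4 to -3.03). Both intervals also left out 0 when widened for the 14 differences measured in this report (0.906 to 10.5 and -14.6 to -0.697). Introns held 189 (43.4% against 40.7%, 2.80 points, -1.86 to 7.57) and exons 9 (2.07% against 2.10%, -0.0274 points, -1.04 to 1.80), and neither interval left out 0. A start site lay inside the peak in 42 broad peaks (9.66%) and in 3.90% of the others, and longer peaks cover more sequence.

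The 58 promoter broad peaks had a median fold of 26.5, below the 34.9 of intronic and the 34.6 of intergenic broad peaks. Their summits were split evenly, 29 upstream and 29 downstream of the start site. CpG-rich sequence (GC of at least 50% and an observed to expected CpG ratio of at least 0.6 over the 901 bp around the summit) was found in 8 of them (13.8%) and in 23.1% of the other promoter peaks. Over all broad peaks it was found in 16 (3.68%) against 2.41%, a difference of 1.27 points (-0.162 to 3.50). GC content itself was higher, with medians of 51.2% in broad and 47.1% in other peaks.

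Motifs within 50 bp of the summit were compared in the same way, with windows 5 kb to either side of all peaks as background. The composite was present in 167 broad peaks (38.4%) and in 32.7% of the others, against 3.09% of flanking windows. The difference was 5.72 points (1.20 to 10.4), but -0.903 to 12.8 once widened. Fold moves with this result. A composite was present in 9 of 45 broad peaks with a fold of 5 to 10 and in 57.4% of the 61 at 100 or more, and in the other peaks the share went from 26.3% to 56.5%. Between folds of 10 and 20 it was 26.3% in broad and 34.2% in other peaks, and between 20 and 50 it was 35.3% and 40.2%. With both sets kept to a fold of at least 17.9, the lower quartile of broad peaks, the difference was 1.75 points (-3.80 to 7.43).

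The GATA motif, which the GATA of a composite often completes, was present in 335 broad peaks (77.0%) and 73.0% of the others, a difference of 3.99 points (-0.260 to 7.78) on a flanking share of 17.1%. By fold, the GATA shares of broad and other peaks were 57.8% and 66.5% from 5 to 10 and 69.7% and 76.0% from 10 to 20. They were 84.6% and 82.0% from 20 to 50, 80.9% and 85.5% from 50 to 100, and 78.7% and 92.9% at 100 or more. E-boxes were at 49.9% and 52.7% (-2.77 points, -7.53 to 1.99) on 42.3%. The palindromic E-box CAGCTG, which is counted among the E-boxes, was at 14.3% and 14.1% (0.197 points, -2.84 to 3.84) on 4.63%. The ETS motif AGGAA was at 49.2% and 52.0% (-2.79 points, -7.54 to 1.98) on 32.5%, and the AP-1 motif (TGACTCA or TGAGTCA) at 4.37% and 4.18% (0.183 points, -1.41 to 2.56) on 1.67%. None of these 5 intervals left out 0.

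The KLF motif CCACCC, bound by factors of the KLF and SP families, was present in 63 broad peaks (14.5%) and in 9.13% of the others, on a flanking share of 7.13%. The difference was 5.35 points (2.31 to 9.0, widened 1.04 to 11.0). It was 3.84 points without promoter peaks, 5.20 points where both sets were kept to the middle of the GC range of broad peaks (48.2% to 54.3%) and 6.84 points at a fold of at least 17.9. By fold, the shares of broad and other peaks were 11.1% (4.84 to 23.5) and 9.55% from 5 to 10, 11.8% (6.36 to 21.0) and 8.75% from 10 to 20, 11.5% (7.42 to 17.5) and 9.03% from 20 to 50, and 17% (10.8 to 25.9) and 9.27% from 50 to 100. At a fold of 100 or more the motif was present in 14 of 61 broad peaks (23%, 14.2 to 34.9) and 5.19% of the other peaks (2.66 to 9.92). In promoters it was present in 15 of 58 broad peaks (25.9%) and 11.8% of the others. The RUNX motif TGTGGT went the other way, with 26 broad peaks (5.98%) against 9.69%, a difference of -3.71 points (-5.65 to -1.02, widened -6.38 to 0.585), and a flanking share of 7.83%. This difference shrank to -0.395 points at a width of 800 bp or more (-2.35 to 1.96).

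**Figure D3:**
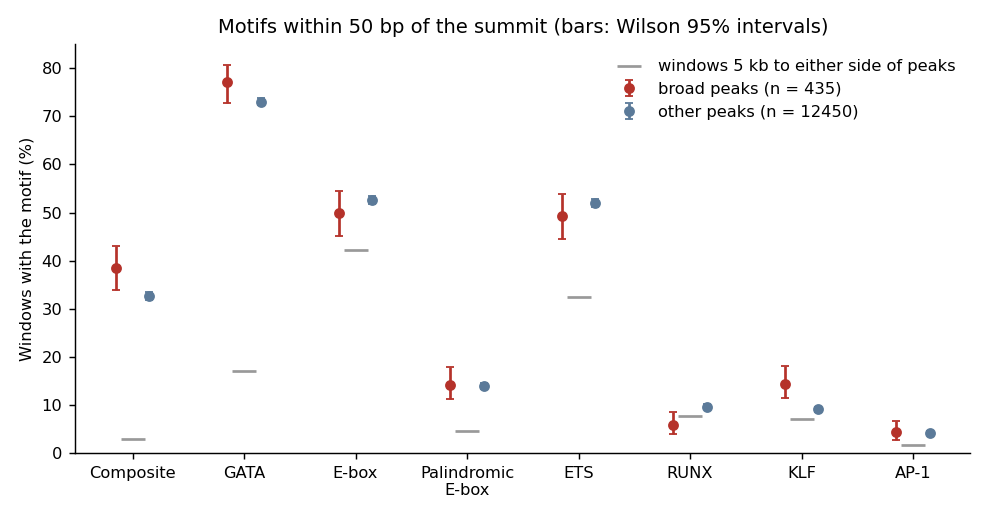
Percentage of summit windows (50 bp on each side) with each of 8 motifs (horizontal axis) in 435 broad peaks (red) and 12450 other peaks (blue), with Wilson 95% intervals, and in windows 5 kb away (grey). Broad peaks lie above the others for the composite (38.4% and 32.7%) and KLF (14.5% and 9.13%) motifs, and below for RUNX (5.98% and 9.69%).

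Broad peaks also differed in how many composites surrounded the summit. Within 450 bp on each side, a window of the same length in every peak, 111 broad peaks (25.5%) and 14.8% of the others held 2 or more. The difference was 10.7 points (6.80 to 15.1, widened 5.06 to 17.3), and it lay between 7.38 and 12.2 points under every alternative tried. It was 8.60 points at a fold of at least 17.9 and 8.17 points against only those other peaks of 500 bp or more. By fold, they were 5 of 45 broad peaks (11.1%, 4.84 to 23.5) and 641 of 5364 others between 5 and 10. Between 10 and 20 they were 18.4% of broad peaks (11.3 to 28.6) and 14.8% of the others. Between 20 and 50 they were 39 of 156 broad peaks (interval 18.9% to 32.3%) and 19.5% of the others. Shares were 34.0% (25.3 to 44.1) and 21.7% between 50 and 100, and 34.4% (23.7 to 46.95) and 30.5% at 100 or more. The broad interval left out the share of the others only between 50 and 100, and contained it in the other ranges given.

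**Figure D4:**
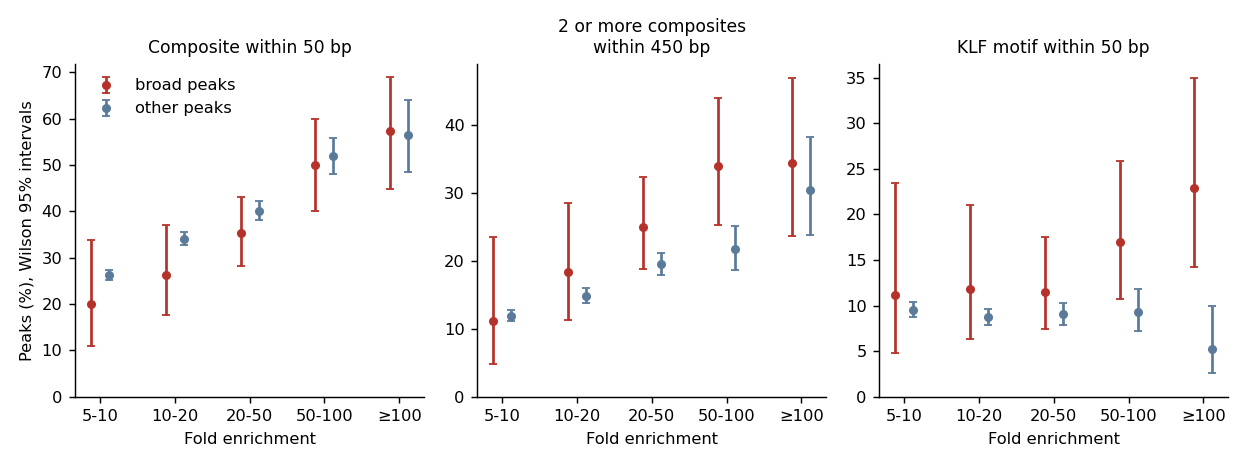
Percentage of peaks (vertical axes, Wilson 95% intervals) with a composite within 50 bp, with 2 or more composites within 450 bp and with a KLF motif within 50 bp, by range of fold enrichment, in broad (red) and other (blue) peaks. Composite shares climb with fold in both sets, while the KLF share at a fold of 100 or more is 23% in broad and 5.19% in other peaks.

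Densities by distance from the summit, which were not matched on fold, are given without intervals. In the 100 bp nearest to the summit broad peaks held 2.76 composites per kb and the others 2.35. Between 100 and 200 bp the densities were 0.540 and 0.412, between 200 and 300 bp 0.644 and 0.325, between 300 and 400 bp 0.655 and 0.349, between 400 and 500 bp 0.391 and 0.358, between 500 and 600 bp 0.586 and 0.355 and between 600 and 700 bp 0.402 and 0.341. By 1400 to 1500 bp they were 0.322 and 0.366. GATA motifs ran at 8.24 and 7.16 per kb in the nearest 100 bp, at 2.77 and 2.22 between 100 and 200 bp, at 2.38 and 2.04 between 200 and 300 bp and at 2.57 and 2.15 between 300 and 400 bp. They were at 2.14 in both sets between 400 and 500 bp, and at 1.97 and 2.16 between 600 and 700 bp. Beyond 500 bp the GATA density was lower in broad peaks in every bin except 1300 to 1400 bp (2.26 and 2.14). By 1400 to 1500 bp it was 1.87 and 2.18. Over the full length of the peak the densities were 1.03 and 1.35 composites per kb, averages that fall with width where sites cluster at the summit.

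**Figure D5:**
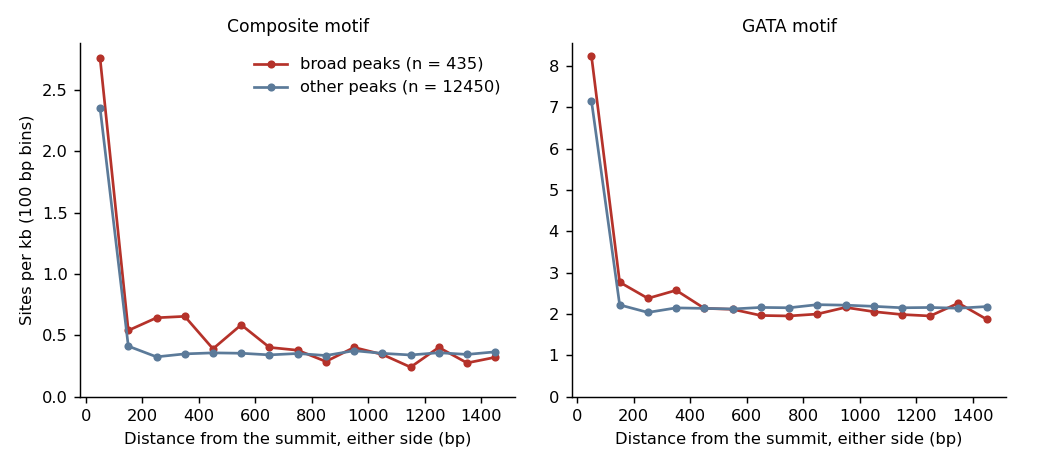
Sites per kb (vertical axes) of the composite and of the GATA motif in 100 bp bins of distance from the summit in bp, both sides joined, for 435 broad (red) and 12450 other (blue) peaks. Both motifs peak at the summit, and from 200 to 400 bp composites run at 0.644 and 0.655 per kb in broad peaks and at 0.325 and 0.349 in the others.

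Counted over the whole peak, 486 composites fell in the 435 broad peaks. None was found in 142 peaks, 1 in 156, 2 in 98 and 3 or more in 39. In the 137 peaks with 2 or more, the outermost composites were a median of 342 bp apart and at most 978.5 bp. Of 193 gaps between neighbouring composites 109 were 200 bp or longer and 20 were under 50 bp, with a median of 247 bp. Of the 268 broad peaks without a composite at the summit, 126 (47.0%) held 1 or more elsewhere. The largest number was 7, in a peak of 1069 bp near Lrrfip1, which encodes a nucleic acid binding protein, with a fold of 65.4: 3 lay within 104 bp of the summit and 4 between 272 and 508 bp on the same side. The Lyl1 peak had composites 22, 524 and 594 bp from its summit and the Gse1 peak shown among the sequences had 4, at 33, 68, 72 and 488 bp. At the Runx1 peak of fold 298.0 a second composite stood 566 bp away. The number of composites in a broad peak had a Spearman correlation of 0.231 with its fold and of 0.139 with its width, over the 435 peaks of this single call. A wider peak holds more sequence to search, so the correlation with width is given as description only.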

How the data were processed

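SCL ChIP and input DNA from day 3.5 FLK1+ mesoderm was sequenced in 2 libraries each. Per the study's methods and the submitters' processing notes, the authors aligned reads to mm9 with Bowtie 1.1.2, removed duplicates, called peaks with MACS2 2.0.10, merged the replicates and set the list by the irreproducible discovery rate. The deposited list holds start, end and summit positions, the fold enrichment (a ratio), the −log10 p and the −log10 q of each peak. The deposited score equalled 10 times the −log10 p, truncated, in 100% of peaks and was not used.

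Pileup and local background were solved from fold and p by the equations of MACS2, and the whole pileup matched the deposited −log10 p within 0.001 in 99.9% of peaks. Read depth per library is not in the list. Precision is that of the number of peaks, and intervals cover counting error only, since no spread between differentiations can be had from a merged call. The study counts fewer bound loci than the list holds, and the whole list was used.

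Sequence came from NCBIM37 (mm9) and genes from GENCODE vM1, with 75543 start sites of protein-coding, lincRNA and processed-transcript genes. A peak was assigned to the nearest start site of its summit, and negative distances are upstream. Coordinates count from 1. Python 3.11.15, numpy 2.4.6, scipy 1.17.1, pandas 2.3.3 and matplotlib 3.10.9 were used, and the motif counter, the solver and the intervals were tested on simulated data.

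The members, the gene lists and the comparisons were chosen with earlier results of these data known. Named were the 10 widest and the 10 strongest broad peaks, those next to the threshold, genes with 3 or more, and the broad peaks of the 8 lists. Selp, Lrrfip1, Mycn, Prickle1, Ccr7, Slit3, 1500016L03Rik, 2610035D17Rik and Arhgap26 fall outside this rule and were chosen after their values were seen. Sequences with a composite are examples from these and do not follow the order of fold within a list. Runx1t1 (fold 330.7) and Lyl1 (fold 293.9), each with a composite 22 bp from the summit, were not printed. Alternatives covered the width, the thresholds on fold and q, the motif windows, the comparison set, merging, high background, gene types and promoter distance.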

Additional observations from a re-analysis of the deposited data

How the results depend on the processing

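No paired analysis was possible because merged replicates gave 1 call without values for the numbered libraries, and for the same reason no library could be left out. Of 207 differences under alternatives, 163 kept their direction and their side of 0. Of 41 counts and medians, 24 stayed within 1.5 times the main count or within the interval of the main median. The causes of the changes were not tested. The differences in 2 or more composites, the KLF motif, promoter and intergenic summits kept both throughout, with ranges of 7.38 to 12.2, 2.66 to 12.4, 3.23 to 7.49 and -19.3 to -5.66 points.

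The difference in the composite at the summit lost its side of 0 in 8 alternatives: 4.48 points at a width of 1000 bp, 2.94 within 25 bp, 2.41 at a fold of 10, 2.10 at a −log10 q of 50, 1.75 at the fold quartile, 4.88 within the GC range, 3.19 without promoters at the fold quartile, and 5.72 with the widened interval. That in RUNX did so at widths of 800, 1000 and 1200 bp (-0.395, -2.55 and -5.05), within 25 and 100 bp (-1.67 and -2.50), after merging within 500 bp (-0.678) and when widened (-3.71).

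Differences without a call at the main setting gained it as follows. GATA gave 5.26 at 800 bp, 4.54 within 100 bp and 6.53 within the GC range. CAGCTG gave 2.71 at 800 bp. ETS gave -3.87 at 800 bp and -6.06 within 100 bp. CpG-rich sequence gave 1.56, 2.70 and 5.54 at 800, 1000 and 1200 bp, 1.54 at a fold of 10, 2.05 at a −log10 q of 50 and 1.68 at the fold quartile. Introns gave 6.44 and 13.9 at 1000 and 1200 bp. Changes of sign fell on uncalled differences. They were CAGCTG -0.699 at a −log10 q of 50 and -0.480 against other peaks of 500 bp or more, GATA -0.588 at the fold quartile, E-boxes 1.99 at 1200 bp and 0.804 within the GC range, ETS 3.43 within the GC range, and AP-1 -1.93 at 1200 bp, -0.392 within 100 bp and -0.0632 at a fold of 10. The exon difference was 0.0708 at 800 bp, 0.250 at a −log10 q of 50, 0.858 at the fold quartile, 0.385 at a fold of 10, 0.205 against other peaks of 500 bp or more and 0.308 without chromosomes 1 and 8.

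The number of broad peaks was 740, 255 and 88 at 800, 1000 and 1200 bp, with 653, 239 and 84 genes and median widths of 926.5, 1130 and 1334.5 bp. Median fold moved to 41.9 at a −log10 q of 50, 39.9 at a fold of 10 and 48.8 at 1200 bp, and median pileup to 232, 224 and 283.5. Merging peaks within 500 bp gave 644 broad peaks at 587 genes, a median width of 1083 bp and a median pileup of 172.5. The alternatives on the GC range, on promoters at the fold quartile, on chromosomes 1 and 8 and on Gm20388 were chosen after seeing the data.

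Peaks are the only units here, and neighbouring peaks and shared libraries make them less independent than the intervals assume.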
